A study of Ananas comosus with 9 samples.

Results

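Aco030461.1.path1 and Aco006590.1.path1 are 2 of the 26730 gene models measured in the peel of pineapple (Ananas comosus). The first is annotated as an O-methyltransferase (EC 2.1.1.240, KEGG ortholog K16040) and the second as a cinnamyl-alcohol dehydrogenase (EC 1.1.1.195, K00083). They were chosen by name because their transcripts were much higher in the peel of the oldest fruit than in that of younger fruit, so their level at that age is given here as a description and was not tested. They are described against the 18 other genes that share K16040 and the 7 others that share K00083. The fruit were 60, 90 or 120 days past flowering (DAF, days after flowering), with 3 RNA-seq libraries of peel per age, in a study of anthocyanins and the discolouration of ripening peel. The labels give no treatment, genotype or cultivar. Nor do they state that libraries of the same age are from different fruits or plants, and the p-values below cover the variation among these libraries alone, part or all of which may be technical.

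Cinnamyl-alcohol dehydrogenase makes the last reduction of the monolignol pathway, turning hydroxycinnamaldehydes into the alcohols that are polymerised into lignin, and relatives of the enzyme also reduce other aldehydes. K16040 is the KEGG entry for the resveratrol di-O-methyltransferase of grapevine, which adds methyl groups to the hydroxyls of a stilbene. Plant O-methyltransferases form large families whose members methylate phenylpropanoids, flavonoids and alkaloids, and sequence alone often does not give the substrate. The annotation therefore places Aco030461 in a family without naming what it methylates in pineapple. No gene in the table (0 of 26730) carried K13232, the code searched for stilbene synthase.

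Total counts ran from 35038248 to 52937826 per library. The 10 largest genes took 9.85 to 13.1% of the counts at 120 DAF and 5.04 to 8.71% at the younger ages. Levels below are the FPKM values (fragments per kilobase of transcript, scaled to library depth) deposited by the authors, and fold changes are from edgeR on the deposited counts, scaled for composition (TMM). The tissue is a whole peel, so fewer cells of a type and less RNA per cell cannot be told apart. Of 50 genes with orthologs of cuticle and epidermis enzymes, 19, 20 and 14 reached 1 FPKM in all 3 libraries at 60, 90 and 120 DAF. Their summed level ran from 337 to 351, 314 to 581 and 233 to 447 FPKM at these ages. Of the 6 ortholog classes in that list, K15401 (2 genes) summed to at most 0.537 FPKM in any library. K15398 (4 genes) summed to 0.646 to 3.64 FPKM at the younger ages and 11.8 to 23.6 FPKM at 120 DAF. K13356 (8 genes) went the other way, from 52.2 to 70.7 FPKM at the younger ages to 45.5 to 47.4 FPKM at 120 DAF. The other classes overlapped between younger ages and 120 DAF. K15397 summed to 156 to 367 and 73.0 to 206 FPKM, K15404 to 14.5 to 46.1 and 6.81 to 22.2 FPKM, and K15400 to 54.2 to 112 and 56.6 to 167 FPKM. The part of these differences in the results below was not tested.

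Transcripts of Aco030461 were scarce in young peel and among the most abundant at 120 DAF. The gene stood at 2.72, 2.01 and 1.296 FPKM in the 3 libraries of 60 DAF and at 0.856, 0.160 and 2.13 FPKM at 90 DAF. At 120 DAF it stood at 1291, 429 and 1314 FPKM. The ages 60 and 90 DAF overlapped, and the lowest library of 120 DAF, replicate 2, was far above all 6 younger libraries. In counts, the gene had 254 reads over the 3 libraries of 60 DAF, 148 over those of 90 DAF and 146650 over those of 120 DAF. Among the 26730 models it ranked 45, 211 and 40 by FPKM in the libraries of 120 DAF, against ranks between 14092 and 18702 in the younger ones. It then took 0.147, 0.0487 and 0.150% of all counts. The fitted log2 fold change was 10.16 ± 1.14 (SE) for 120 against 90 DAF and 9.26 ± 1.10 for 120 against 60 DAF, that is 1143-fold and 612-fold. Without 90 DAF replicate 3 the first was 2452-fold, and without 90 DAF replicate 2 it was 797-fold. The second was 513-fold without 120 DAF replicate 3 and 796-fold without 120 DAF replicate 2.

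Aco006590 followed the same order of libraries at 120 DAF less steeply, from a higher starting level. It stood at 9.44, 3.98 and 1.99 FPKM at 60 DAF, at 11.6, 3.79 and 12.8 FPKM at 90 DAF, and at 390, 102 and 737 FPKM at 120 DAF. Again the younger ages overlapped, all 3 libraries of 120 DAF lay above them, and replicate 2 was the lowest of that age. The gene ranked 244, 1424 and 94 of 26730 at 120 DAF. The spread at that age was wide, at 410 ± 318 FPKM (SD, n = 3), against 1011 ± 505 FPKM for Aco030461. The fitted log2 fold change was 5.74 ± 1.002 for 120 against 90 DAF and 6.60 ± 1.04 for 120 against 60 DAF, that is 53.4-fold and 97.2-fold. Leaving out 120 DAF replicate 3 gave 31.5-fold and 57.3-fold, and leaving out 60 DAF replicate 1 gave 172-fold for the latter.

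**Figure D1:**
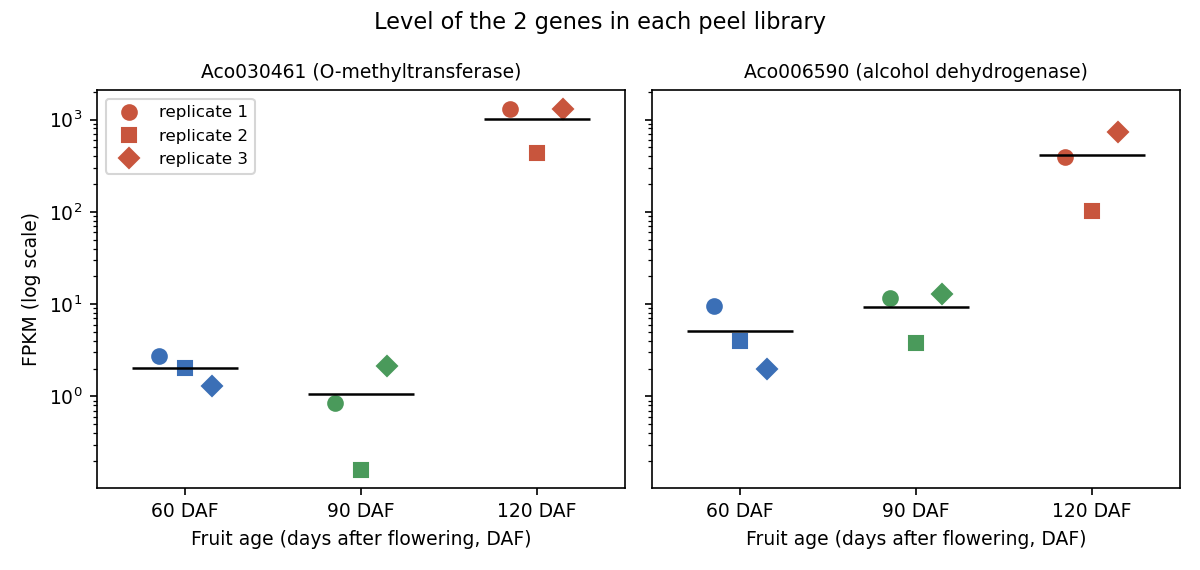
FPKM (log axis) of Aco030461 and Aco006590 in each library by fruit age; symbols mark replicates 1 to 3 and lines the mean of 3 libraries. All libraries of 120 DAF sit above all younger ones, and replicate 2 is the lowest at 90 and at 120 DAF for both genes.

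The comparison that did not choose the genes is that of the younger ages. Neither was called between 60 and 90 DAF by edgeR, where 0.786% of the 16791 tested genes were. Aco030461 stood at 2.01 ± 0.712 and 1.05 ± 1.0 FPKM (SD, n = 3) (log2 fold change -0.90 ± 0.81, edgeR adjusted p = 0.631). Aco006590 stood at 5.14 ± 3.86 and 9.41 ± 4.91 FPKM (0.86 ± 0.83, edgeR adjusted p = 0.655). The differences between these ages were of opposite sign for the 2 genes and about as large as their standard errors.

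The locus of Aco030461 holds a second gene model. Aco030461 lies on contig 4, from 8560686 to 8563378 on the plus strand. Aco022812, which also carries K16040, has the same start and strand and an end 12 bp further on, so all 2693 bp of Aco030461 are shared. No source used here says how reads were divided between the models, and the split is uncertain. Aco022812 held 495, 3205 and 876 counts in the libraries of 120 DAF. This was 0.852, 12.9 and 1.28% of the counts of both models, so the library with the least Aco030461 had the most Aco022812. The 2 models together gave 1303, 496 and 1332 FPKM at 120 DAF against 0.160 to 2.84 FPKM in the 6 younger libraries. With the counts of Aco022812 added, an alternative chosen after the data were seen, the log2 fold change for 120 against 90 DAF was 9.90.

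Among the other K16040 genes, Aco022812 was high at 120 DAF with Aco030461, and 3 tested genes at other loci fell. Aco020718, at another locus and not tested, had most of its reads at 120 DAF. Of the 18 other genes, 9 reached 1 FPKM in at least 3 libraries and entered the test. Aco022812 is among them only through its libraries of 120 DAF and lies on the bases of a gene chosen for its level at that age, so its values are a description: it had a mean of 0.235 ± 0.408 FPKM at 90 DAF and 32.3 ± 30.3 FPKM at 120 DAF. Of the 8 others in the test, edgeR called 0 higher and 3 lower from 90 to 120 DAF, where 8.19% of all tested genes were higher and 9.17% lower. Before adjustment 0 were higher and 3 lower at p under 0.05 (15.6% and 17.7% of all), and DESeq2 called 3 (27.7% of all). From 60 to 120 DAF edgeR called 0 higher and 3 lower, against 4.25% and 5.22% of all. Before adjustment 0 were higher and 4 lower (13.2% and 13.7% of all), and DESeq2 called 4 (20.2% of all). Between 60 and 90 DAF edgeR called 0 (0.786% of all). Before adjustment 0 were higher and 3 lower (8.68% and 8.26% of all), and DESeq2 called 2 (8.56% of all). Of the 3 genes called lower, Aco018058 and Aco021871 passed the filter only through libraries of the younger ages, where they were higher. Aco020718 did not pass it, so the filter shaped in part how many genes could be called higher or lower.

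The 3 calls from 90 to 120 DAF became 1 without any 1 library other than 90 DAF replicate 3 and 120 DAF replicate 2. The 3 from 60 to 120 DAF became 1 when replicate 1 of 120 DAF was left out and 6 when replicate 2 of that age was. The median log2 fold change of the 8 was -0.63 for 120 against 90 DAF and -2.07 for 120 against 60 DAF, where that of all tested genes was -0.03 and -0.01.

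The most highly expressed of the other K16040 genes fell with age. Aco020649 on contig 3 stood at 45.9, 38.9 and 46.9 FPKM at 60 DAF, at 26.2, 37.2 and 10.3 FPKM at 90 DAF and at 8.03, 7.42 and 7.92 FPKM at 120 DAF. No library of 120 DAF reached the level of any younger one. The gene fell by 2.21 ± 0.37 on the log2 scale from 60 to 120 DAF (edgeR adjusted p = 0.0133, and 0.0526 without 120 DAF replicate 1). From 90 to 120 DAF the log2 fold change was -1.33 ± 0.36 (adjusted p = 0.0399), a call that ended without any 1 library other than 90 DAF replicate 3 (0.0606 to 0.108) and when the third age was left out of the fit (0.101).

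Aco018058 on contig 12 was almost undetected at 120 DAF. The libraries of 60 DAF held 183, 108 and 252 of its reads and those of 90 DAF 141, 416 and 87, while those of 120 DAF held 0, 4 and 0. In FPKM these were 1.998 to 7.64 in the younger libraries and at most 0.0694 at 120 DAF, so the groups did not overlap. Both comparisons with 120 DAF were called by edgeR (adjusted p = 0.00763 against 90 DAF and 0.0113 against 60 DAF), and both calls held in all 16 alternatives. Aco021871 on contig 22 went from 5.96 ± 2.06 and 3.12 ± 1.45 FPKM at 60 and 90 DAF to 0.220 ± 0.228 FPKM at 120 DAF. It was called lower against 60 DAF (adjusted p = 0.0364) and against 90 DAF (0.0465). These calls ended without any library of 60 DAF, 90 DAF replicate 1, or 120 DAF replicate 1 or 3, and the second also without 90 DAF replicate 2 (adjusted p from 0.0552 to 0.118). The second call also ended without the filter (0.0570) and when the third age was left out of the fit (0.107).

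In 3 short K16040 models on contig 4 the edgeR calls depended on a single library. Aco020013, Aco020014 and Aco020015 lie between 8979383 and 8980554, about 416 kb beyond Aco030461, and the latter 2 overlap by 216 bp on opposite strands, so their reads cannot be told apart where counting ignores strand. Aco020013 stood at 61.7, 28.8 and 63.5 FPKM at 60 DAF, at 9, 8.92 and 8.42 FPKM at 90 DAF and at 6.41, 34.9 and 4.16 FPKM at 120 DAF. In all 3 models replicate 2 was the highest library of 120 DAF, where Aco030461 and Aco006590 were lowest. With all 9 libraries edgeR called none of the 3 in any comparison (adjusted p from 0.150 to 0.578). Without 120 DAF replicate 2 it called all 3 lower at 120 than at 60 DAF, with log2 fold changes of -2.97, -6.72 and -3.19 (adjusted p = 0.0105, 0.0321 and 0.0234), where those over all libraries were -1.53, -1.93 and -1.27. For 90 against 60 DAF the log2 fold change of Aco020013 was -2.56 ± 0.74 and that of Aco020015 was -3.16 ± 0.94. DESeq2 called both (adjusted p = 0.00700 and 0.0143), as did edgeR without 120 DAF replicate 2 (0.0326 and 0.0424).

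Of the remaining K16040 genes, Aco006237 on contig 17 stood at 9.46 ± 1.77, 10.2 ± 4.42 and 6.67 ± 1.45 FPKM at the 3 ages, and Aco000057 on contig 13 at 11.6 ± 5.78, 4.17 ± 4.33 and 1.70 ± 0.985 FPKM. With all 9 libraries edgeR called neither in any comparison. Aco000057 was called lower at 120 than at 60 DAF by DESeq2 (adjusted p = 0.00897), when the third age was left out of the fit (0.0405) and without 90 DAF replicate 2 (0.0300). Aco020718, on the minus strand of contig 4 about 60 kb before Aco030461, did not pass the filter and was not tested. The libraries of 60 DAF held 0, 14 and 0 of its reads, all those of 90 DAF held 0, and those of 120 DAF held 201, 46 and 290. Its order of libraries at 120 DAF was that of Aco030461. The other 8 untested genes had means of at most 0.329 FPKM over the 9 libraries, and 1 of them had 0 counts in every library.

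The leading K16040 gene differed between ages. Aco030461 made up 0.187 to 5.70% of the summed FPKM of the 19 genes in the younger libraries, where either Aco020649 or Aco020013 was first. It made up 96.9, 76.2 and 96.8% at 120 DAF. The summed level of the other 18 was 149 ± 29.0 FPKM at 60 DAF, 58.0 ± 25.4 FPKM at 90 DAF and 72.8 ± 52.7 FPKM at 120 DAF. Without Aco022812 the value at 120 DAF was 40.5 ± 22.6 FPKM (exact permutation p 0.50 against 90 DAF and 0.10 against 60 DAF). For all 18, the exact permutation p (two-sided, n = 3 per age) was 0.10 for 90 against 60 DAF, 0.80 for 120 against 90 DAF and 0.20 for 120 against 60 DAF, where 0.10 is the smallest that 3 against 3 allows. Without 120 DAF replicate 2 the difference between 120 and 90 DAF went from 14.8 to -15.6 FPKM.

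**Figure D2:**
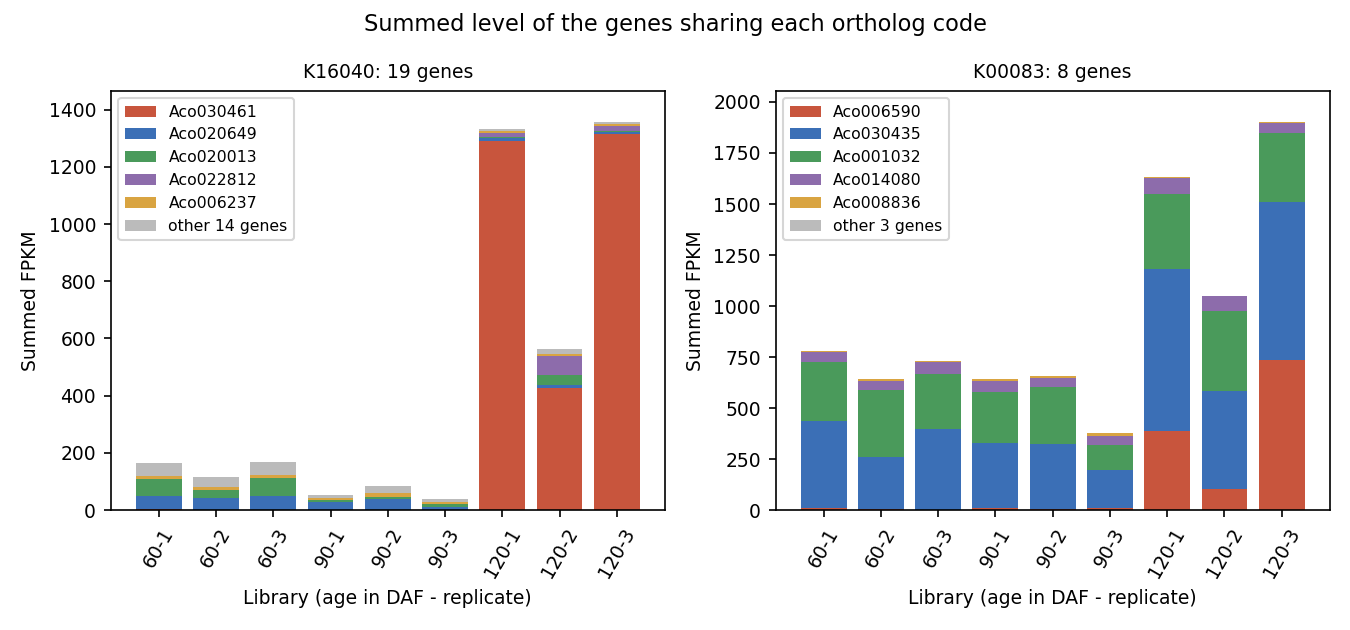
Summed FPKM of the 19 genes with K16040 and of the 8 with K00083 in each library; colours mark single genes and grey the rest. Aco030461 fills 76.2 to 96.9% of the left bars at 120 DAF, while Aco006590 fills 9.70 to 38.7% of the right ones.

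In the cinnamyl-alcohol dehydrogenase family the abundant genes were expressed at every age, and 3 of them were higher at 120 than at 90 DAF. Of the 7 other K00083 genes 5 were tested, and edgeR called 3 higher and 1 lower from 90 to 120 DAF, with the background of 8.19% and 9.17% given above. For these ages 3 were higher and 1 lower before adjustment (15.6% and 17.7% of all), and DESeq2 called 4 (27.7% of all). From 60 to 120 DAF 1 was called higher and 0 lower, where 4.25% and 5.22% of all tested genes were. Before adjustment 3 were higher and 1 lower at p under 0.05 (13.2% and 13.7% of all), and DESeq2 called 3 (20.2% of all). Between 60 and 90 DAF edgeR and DESeq2 each called 0 of the 5 (0.786% and 8.56% of all). Before adjustment 0 had a p under 0.05, where 8.68% of all were higher and 8.26% lower. The total of 4 from 90 to 120 DAF became 2 without 90 DAF replicate 2 or 120 DAF replicate 3 and 1 without 120 DAF replicate 1. The 1 from 60 to 120 DAF became 0 without any library of 60 DAF, 90 DAF replicate 1 or 120 DAF replicate 1 or 3, and 2 without any of the other 3 libraries. The median log2 fold change of the 5 was 0.77 for 120 against 90 DAF and 0.59 for 120 against 60 DAF. The 2 untested genes, Aco008871 and Aco022069, had 0 counts in every library.

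Aco030435 on contig 15 was the most highly expressed of the family over the 9 libraries. It stood at 429, 257 and 396 FPKM at 60 DAF, at 316, 321 and 183 FPKM at 90 DAF and at 790, 481 and 774 FPKM at 120 DAF. All 3 libraries of 120 DAF were above the younger ones, and replicate 2 was again the lowest of its age. The gene rose 3.11-fold from 90 to 120 DAF (log2 fold change 1.64 ± 0.31, edgeR adjusted p = 0.0126), a call that held in all 16 alternatives. Against 60 DAF it was 2.30-fold higher (adjusted p = 0.0473). It was no longer called against 60 DAF without any library of that age, 90 DAF replicate 1, or 120 DAF replicate 1 or 3 (0.0692 to 0.151). It also ended under total count scaling (0.0954), without the filter (0.0560) and when the third age was left out of the fit (0.0501).

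Aco001032 and Aco014080 rose less. Aco001032 on contig 3 stood at 294 ± 29.8, 218 ± 81.3 and 366 ± 28.3 FPKM at 60, 90 and 120 DAF (log2 fold change 1.06 ± 0.24 for 120 against 90 DAF, edgeR adjusted p = 0.0212). Aco014080 on contig 4 stood at 49.9 ± 7.62, 47.9 ± 6.86 and 66.8 ± 13.3 FPKM (0.77 ± 0.18, adjusted p = 0.0252). Unlike Aco006590, Aco001032 had its highest library of 120 DAF in replicate 2, at 392 FPKM. The call of Aco001032 ended without 120 DAF replicate 1 or 3 (0.0683 and 0.0536). The call of Aco014080 ended without 90 DAF replicate 2 or 120 DAF replicate 1 or 2 (0.0616 to 0.0899). When the third age was left out of the fit, the adjusted p was 0.0674 for the first and 0.0643 for the second. Under total count scaling, which shifts the median log2 fold change of all genes by -0.30 for this pair of ages, both stayed higher and were not called (adjusted p = 0.0941 and 0.135).

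The low members of the family were Aco008836 and Aco008870 on contig 10. Aco008836 stood at 6.53 ± 3.07, 9.05 ± 2.34 and 4.42 ± 1.02 FPKM and was not called. Aco008870, named here after its values were seen, stood at 1.86, 2.32 and 1.24 FPKM at 90 DAF and at 0, 0.213 and 0 FPKM at 120 DAF. It was called lower with an edgeR adjusted p of 0.0498, a call that ended without any 1 library other than 120 DAF replicate 2 (0.0555 to 0.0996), without the filter (0.0653) and when the third age was left out of the fit (0.107). It passed the filter through its libraries of 90 DAF and 60 DAF replicate 2, so only the younger ages, where it was higher, brought it into the test. It shares 2627 bp with Aco008871, on the other strand.

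The summed level of the 7 other K00083 genes was 712 ± 67.0 FPKM at 60 DAF, 550 ± 161 FPKM at 90 DAF and 1119 ± 151 FPKM at 120 DAF. The libraries of 120 DAF (949 to 1241 FPKM) did not overlap those of either younger age (365 to 770 FPKM), with an exact permutation p of 0.10 (two-sided, n = 3 per age) for each, the smallest possible. Aco006590 made up 0.273 to 3.40% of the family in the younger libraries and ranked 4 or 5 in it. At 120 DAF it made up 23.9, 9.70 and 38.7% and ranked 2, 3 and 2. It was below Aco030435 in all 9 libraries, by the least in replicate 3 of 120 DAF, at 737 against 774 FPKM.

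**Figure D3:**
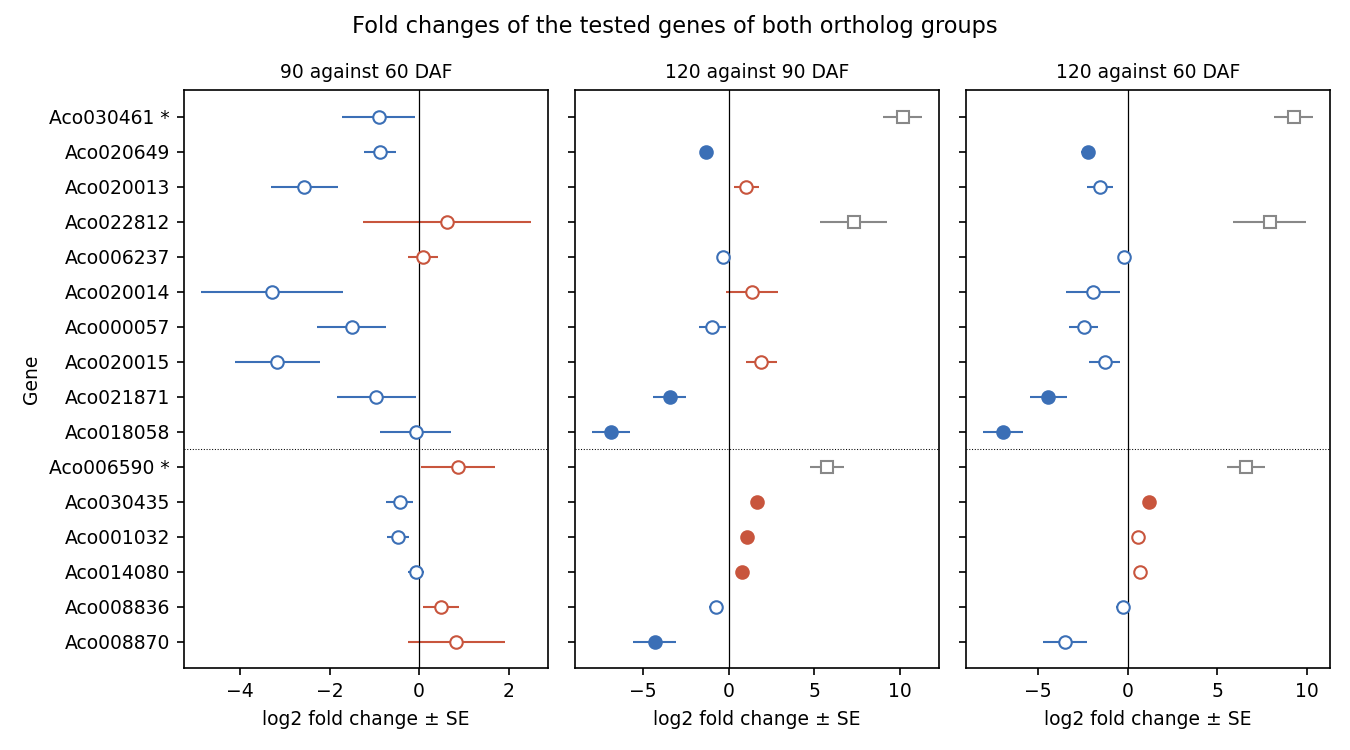
Log2 fold changes (± SE, edgeR) of the tested genes with K16040 (above the dotted line) and K00083 (below) for the 3 pairs of ages. Filled points were called at an adjusted p under 0.05; grey squares, given as a description, are Aco030461 and Aco006590 (starred) where they had been chosen for the difference, and Aco022812 on the bases of the first. The x ranges differ between panels.

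The wider phenylpropanoid and lignin pathway, which supplies the aldehydes that cinnamyl-alcohol dehydrogenase reduces, moved in both directions. The list holds 94 genes in 10 enzyme steps from phenylalanine ammonia-lyase to caffeic acid O-methyltransferase, without the K00083 genes, and 52 were tested. From 90 to 120 DAF 9 rose and 7 fell by edgeR, which is 16 of 52 where 8.19% and 9.17% of all tested genes did so. Before adjustment 11 were higher and 11 lower at p under 0.05 (15.6% and 17.7% of all), and DESeq2 called 18 (27.7% of all). From 60 to 120 DAF 7 rose and 3 fell by edgeR, where 4.25% and 5.22% of all did so. Before adjustment 13 were higher and 8 lower (13.2% and 13.7% of all), and DESeq2 called 15 (20.2% of all). Between 60 and 90 DAF edgeR called 0 (0.786% of all). Before adjustment 8 of the 52 were higher and 6 lower at p under 0.05 (8.68% and 8.26% of all), and DESeq2 called 10 (8.56% of all). The median log2 fold change of the 52 was 0.01 for 120 against 90 DAF and 0.57 for 120 against 60 DAF. That of all tested genes was -0.03 and -0.01. Without 120 DAF replicate 1 the total of 16 was 7, and without replicate 3 it was 10. The total of 10 from 60 to 120 DAF was 2 to 6 without any library of 60 DAF or 120 DAF replicate 1 or 3.

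By step, the genes that rose from 90 to 120 DAF were 1 of 6 tested for phenylalanine ammonia-lyase, 2 of 6 for 4-coumarate-CoA ligase, 2 of 16 for hydroxycinnamoyltransferase, 3 of 9 for cinnamoyl-CoA reductase and 1 of 2 for ferulate 5-hydroxylase. Those that fell were 1 ligase, 4 hydroxycinnamoyltransferases, 1 reductase and 1 of 6 caffeoyl-CoA O-methyltransferases. None of the 2 cinnamate hydroxylase, 1 coumaroyl hydroxylase, 3 caffeoyl esterase and 1 caffeic acid O-methyltransferase genes tested was called.

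The most highly expressed gene of each step was called in 3 of 10 cases from 90 to 120 DAF, all higher. Ferulate 5-hydroxylase Aco007577, which leads towards syringyl units of lignin, had a mean of 11.6 ± 4.17 FPKM at 90 DAF and 59.95 ± 29.95 FPKM at 120 DAF (log2 fold change 2.69 ± 0.54, edgeR adjusted p = 0.0148, called in all 16 alternatives). Hydroxycinnamoyltransferase Aco012071, which makes the shikimate esters that are hydroxylated next, went from 88.4 ± 63.8 to 283 ± 71.6 FPKM (2.003 ± 0.43, adjusted p = 0.0185, 0.0619 without 120 DAF replicate 1 and 0.0587 when the third age was left out of the fit). 4-coumarate-CoA ligase Aco019975, which activates the acids as CoA esters, went from 36.9 ± 12.5 to 116 ± 7.72 FPKM (1.96 ± 0.42, adjusted p = 0.0181). It was no longer called without 90 DAF replicate 2 or 120 DAF replicate 1 or 3 (0.0522 to 0.0544). Cinnamoyl-CoA reductase Aco000637, which makes the aldehydes used by cinnamyl-alcohol dehydrogenase, was the most abundant of the pathway at 915 ± 388 and 2109 ± 249 FPKM and missed the threshold in edgeR (1.53 ± 0.53, adjusted p = 0.0836) but not in DESeq2 (0.0203) or without 60 DAF replicate 1 (0.0296). Caffeoyl-CoA O-methyltransferase Aco018902 stood at 716 ± 626 and 144 ± 55.5 FPKM (-2.11 ± 0.72, edgeR adjusted p = 0.0791), and it was called by DESeq2 (0.0106), under total count scaling (0.0484) and without 90 DAF replicate 2 (0.0376). The leading genes of the remaining steps, phenylalanine ammonia-lyase Aco013943, cinnamate hydroxylase Aco007124, coumaroyl hydroxylase Aco007241 and caffeoyl esterase Aco009772, had log2 fold changes of -0.37, 0.27, -0.56 and -0.08 (adjusted p from 0.147 to 0.939). Caffeic acid O-methyltransferase Aco009322, the only gene with the ortholog of the lignin O-methyltransferase (K13066), stood at 15.8 ± 4.49, 18.6 ± 4.18 and 21.3 ± 2.13 FPKM at 60, 90 and 120 DAF (0.48 ± 0.27 for 120 against 90 DAF, adjusted p = 0.258).

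**Figure D4:**
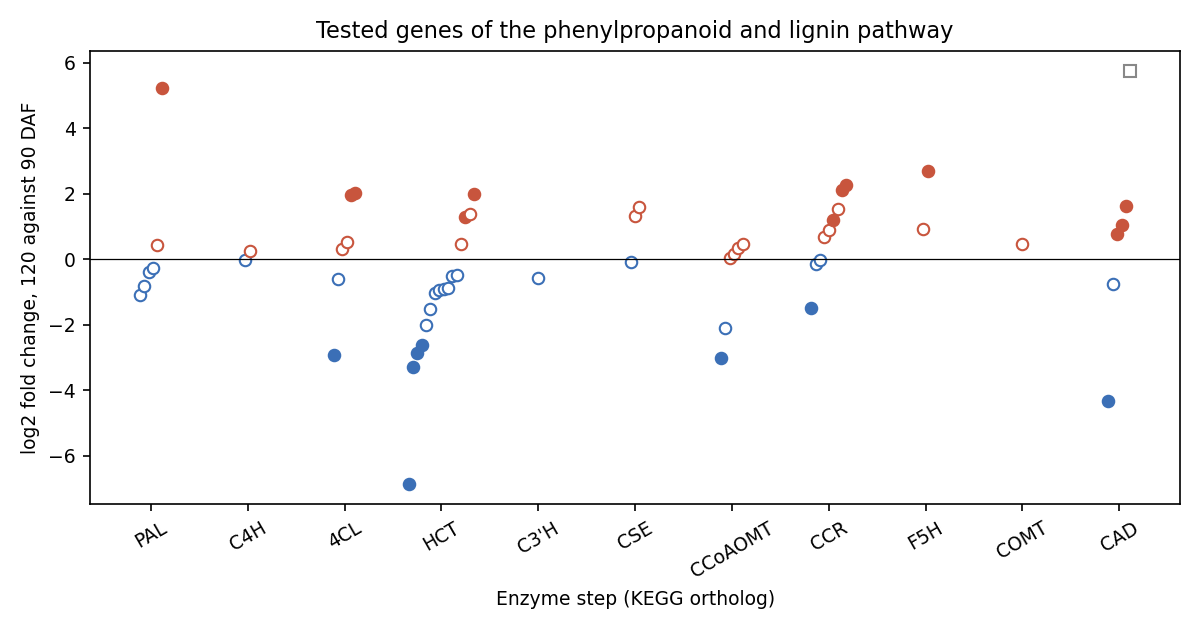
Log2 fold change from 90 to 120 DAF (edgeR) of each tested gene by enzyme step, from left to right phenylalanine ammonia-lyase, cinnamate hydroxylase, the CoA ligase, hydroxycinnamoyltransferase, coumaroyl hydroxylase, caffeoyl esterase, caffeoyl-CoA O-methyltransferase, cinnamoyl-CoA reductase, ferulate 5-hydroxylase, caffeic acid O-methyltransferase and cinnamyl-alcohol dehydrogenase (CAD); filled points were called at an adjusted p under 0.05, and the grey square is Aco006590. Of the 52 genes outside CAD 9 rose and 7 fell.

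Over the 9 libraries, genes with a pattern like that of Aco030461 or Aco006590 were ranked by Pearson correlation of log2(CPM + 1) among 12796 genes with a mean of at least 5 FPKM. The libraries of 120 DAF stand apart from the other 6 in both genes, and the values that follow are a description of these 9 points, with no test. The 5 genes most like Aco030461 were transaldolase Aco015068 of the pentose phosphate pathway (0.989), protein phosphatase Aco009335 (0.989), the gene Aco007711 with a defence response term (0.988), the ester hydrolase gene Aco006790 (EC 3.1.1.80, 0.987) and Aco015879, which carries no annotation (0.984). Their size of change differed: transaldolase stood at 234 to 285 FPKM in the younger libraries and at 330 to 373 FPKM at 120 DAF. Aco006790 stood at 0.119 to 2.47 FPKM and at 104 to 238.5 FPKM. Within the 6 younger libraries alone, the correlations of the 5 with Aco030461 ran from 0.04 to 0.76.

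For Aco006590 the 5 were non-specific phospholipase C1 Aco014094 (0.985), the membrane protein genes Aco005433 (0.981) and Aco000848 (0.978), the metal-binding gene Aco003551 described as a homolog of anti-oxidant 1 (0.980) and Aco012374 (0.978), with the ortholog code of GH3 auxin-conjugating enzymes. In all 5, replicate 2 was the lowest library of 120 DAF, as in Aco006590. Aco012374 stood at 10.4, 8.70 and 24.4 FPKM at 120 DAF and at most 0.937 FPKM before. Within the 6 younger libraries the correlations of the 5 with Aco006590 ran from 0.73 to 0.89. The 2 lists of 5 had 0 genes in common. Aco030461 and Aco006590 correlated with each other at 0.963 over the 9 libraries and at 0.398 over the 6 younger ones. Of the 12796 genes ranked, 105 correlated above 0.95 with Aco030461 and 49 with Aco006590. Aco006590 would rank 57 for Aco030461, and Aco030461 would rank 28 for Aco006590.

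With all 9 libraries edgeR called none of the tested genes beside the 2 loci, Aco022812 apart. On contig 4, Aco022813 before Aco030461 stood at 51.2 ± 1.99, 67.4 ± 8.07 and 45.9 ± 0.197 FPKM at 60, 90 and 120 DAF. It was called lower at 120 than at 90 DAF under total count scaling alone (adjusted p = 0.0297). Aco022811 after it stood at 13.5 ± 3.03, 14.6 ± 3.35 and 23.5 ± 3.99 FPKM, with an edgeR adjusted p of 0.0516 for 120 against 90 DAF and 0.0507 for 120 against 60 DAF. DESeq2 called it higher in both (0.0121 and 0.00503), as did edgeR without 90 DAF replicate 3 (0.0407 and 0.0411). It was also called without 120 DAF replicate 2 in the first (0.0491), and in the second without 90 DAF replicate 2 (0.0282) and when the third age was left out of the fit (0.0348). Aco031173 had 0 counts in every library. Aco006590 lies on contig 15, from 1138741 to 1146474 on the minus strand. Its 2 neighbours on either side were Aco006592, Aco006591, Aco006589 and Aco006587 (adjusted p over the 3 comparisons from 0.0541 to 0.988). Among these 4 the log2 fold change farthest from 0 was 0.78 ± 0.27, for Aco006589 between 60 and 120 DAF, which was called without 90 DAF replicate 2 or 3 (0.0386 and 0.0342) and when the third age was left out of the fit (0.0173). Between 90 and 120 DAF it was called without 90 DAF replicate 3 (0.0392). DESeq2 called Aco006592 higher at 120 DAF than at either younger age (0.00522 and 0.00719).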

How the data were processed

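The deposited table gives, per the file headers, whole-number counts and the authors' FPKM values for each library, with the contig, start and end of each gene model. FPKM that the authors wrote as 0.0001 at count 0 are shown as 0. Poly(A) RNA was sequenced in read pairs, per the labels' protocols. The submitters' processing notes name Bowtie 0.12.2, HISAT2 2.0 and StringTie 1.3.0, without their roles. No source used here gives the genome build or whether counting used strand.

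edgeR's quasi-likelihood test was run on the deposited counts of all 9 libraries, with TMM scaling (factors 0.849 to 0.912 at 120 DAF and 0.973 to 1.15 at the younger ages). The 16791 genes that reached 1 FPKM in 3 or more libraries were tested, with Benjamini-Hochberg adjustment across them and a threshold of 0.05. Printed FPKM carry no TMM scaling, so their ratios differ from the fitted folds. The script was tested on simulated data.

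Named genes were the 2 chosen genes, genes sharing their ortholog with a mean of at least 1 FPKM, the most highly expressed gene of each pathway step, the 5 most alike and 2 neighbours on either side. Members and lists were chosen with earlier results of these data known. The alternatives were median-ratio or total count scaling, no filter, DESeq2, the replicate number as a block, only the 2 compared ages, and each library left out. The sum of the overlapping models was added after the data were seen. Of the RefSeq identifiers, 0 matched. R was 4.3.3, with edgeR 4.0.16 and DESeq2 1.42.0, and Python was 3.11.15, with matplotlib 3.10.9 and pandas 2.3.3.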

Additional observations from a re-analysis of the deposited data

How the results depend on the processing

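The fold changes of Aco030461 and Aco006590 kept their direction under all alternatives. Of 16 called comparisons of named genes 4 held in every alternative, 12 were lost without 120 DAF replicate 1, and 0 reversed. With the replicate block 6 were lost: those of Aco020649, Aco014080 and Aco008870 for 120 against 90 DAF, of Aco030435 for 120 against 60 DAF and both of Aco021871 (adjusted p from 0.0512 to 0.0932). For the other K16040 genes, Aco022812 included, the counts called were 0, 4 and 4 for 90 against 60, 120 against 90 and 120 against 60 DAF. They became 2 for the first with DESeq2, 1 for the second with only the 2 ages in the fit, and with the replicate block 1 for the second and 2 for the third. With 1 library left out they ran from 0 to 2, 1 to 4 and 1 to 6. Without Aco022812, 0, 3 and 3 became 2 for the first with DESeq2 and 1 for the second with the block or only these ages, and ran from 0 to 2, 1 to 3 and 1 to 6 with 1 library left out. For the other K00083 genes the count for 120 against 90 DAF went from 4 to 2 under total count scaling or the replicate block and to 1 with only these ages. The count for 120 against 60 DAF went from 1 to 0 under total count scaling, without the filter or with the block, to 2 with only these ages and to 3 with DESeq2. With 1 library left out they ran from 1 to 3 and from 0 to 2. For the pathway list, 0, 16 and 10 became 10 for the first with DESeq2 and 10 for the second with only these ages. With 1 library left out they ran from 0 to 3, 7 to 16 and 2 to 13.

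Over all genes, 132 were called from 60 to 90 DAF, against 85 under total count scaling, 76 without the filter, 10 with the replicate block, 56 with only these ages and 1437 with DESeq2. From 90 to 120 DAF 2915 became 1299 with only these ages and 4659 with DESeq2. From 60 to 120 DAF 1590 became 995 with the block, 2603 with only these ages and 3393 with DESeq2. With 1 library left out these counts ran from 0 to 277, 1116 to 3128 and 404 to 2457. The summed FPKM of the other K16040 genes differed by -15.6 to 30.8 between 120 and 90 DAF with 1 library left out. The causes were not tested. The replicate numbers did not pair the samples across all 3 ages. Correlations of same-numbered deviations ran from -0.43 to 0.48 and exceeded 0.1 in 3 of 9 pairs. Of the 9 libraries, 0 correlated best with their own number in both other ages. Of the 5 genes most alike by Pearson correlation, 0 were among the 5 most alike (ties included) by Spearman correlation, for either gene. Genes that did not reach 1 FPKM in 3 libraries were not tested, which at this depth leaves low genes undescribed by a test.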
